A study of Mus musculus with 8 samples.

Results

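The insulin-like growth factor (IGF) axis was described here through 10 genes in sorted mouse mammary cells: the ligand genes Igf1 and Igf2, the receptor genes Igf1r and Insr, and the genes of the IGF binding proteins, Igfbp2 to Igfbp7. The members were chosen by gene symbol, and every probe set that the array annotation gives to one of these symbols alone was used. They came to 10 of the 18194 genes on the array and 29 of its 34958 probe sets with a single gene, and all 10 were among the 14598 genes tested. For each gene the brightest probe set, by its mean signal over all 8 arrays, leads, and the others are set beside it.

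IGF1 and IGF2 are secreted growth factors that act through the IGF1 receptor, a tyrosine kinase closely related to the insulin receptor, and signal through insulin receptor substrates, PI3 kinase and AKT. IGF binding proteins hold the ligands outside the cell and can block or prolong their action, and proteases such as pregnancy-associated plasma protein A release the ligands again. In the mammary gland, stromal IGF1 made under growth hormone is known for driving duct growth, and IGFBP5 is known for its part in the cell loss of involution.

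The arrays held RNA of epithelial cells that had been sorted by flow cytometry from glands of C/EBPb knockout (KO) and wildtype (WT) mice. C/EBPb is a transcription factor, encoded by Cebpb, and the study asked which signalling pathways it regulates in mammary stem and progenitor subpopulations. The knockout was germline, so the gland and the animal around the sorted cells lacked the factor too. In each genotype a LIN-CD24+CD29hi gate and a LIN-CD24hiCD29lo gate were sorted, called CD29hi and CD29lo here. This gave 4 groups of 2 biological replicates: KO CD29hi, WT CD29hi, KO CD29lo and WT CD29lo. The glands came as 2 paired sets with 10 mice per group, so an array stands for pooled animals. The arrays of a group carry the replicate numbers 1 and 2 of the labels, and values are given in that order. The sources used here give neither strain nor age, nor the part of Cebpb that is missing.

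Values are log2 signals as deposited, on arrays whose medians lay between 5.45 and 5.67. A background was set on each array from 27 bacterial control probe sets. It lay between 3.84 and 4.41, with 64.7% to 71.2% of all probe sets above it. Cebpb read 8.60 and 9.38 in KO CD29hi against 11.95 and 12.25 in WT CD29hi, and 9.23 and 8.89 in KO CD29lo against 11.83 and 12.18 in WT CD29lo. All 4 KO arrays were thus below all 4 WT arrays. On average the gates carried their lineage markers: the mean over 16 basal markers lay between 11.3 and 11.7 in CD29hi arrays and between 7.96 and 8.20 in CD29lo arrays. In WT, 15 of the 16 were higher in CD29hi and 1, Vim, was lower, with 11.75 and 11.74 against 11.77 and 12.72. Itgb1, the gene of CD29, read 11.66 and 11.69 in WT CD29hi, against 11.39 and 11.59 in WT CD29lo. Over 16 luminal markers the mean lay between 8.16 and 8.82 in CD29hi arrays and between 10.8 and 11.0 in CD29lo arrays. Markers of fibroblasts differed in level between arrays of 1 gate, and their values stand beside the results they touch.

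The DNA just before the start of 4 members is shown, to set side by side genes on both sides of the gate comparison: Igfbp3 and Igfbp4, which were higher in CD29hi, and Igfbp5 and Igf1, which were lower there. Each line gives the 250 bases upstream of the annotated start in RefSeq on build GRCm38.p6, read 5′ to 3′ on the gene's strand. Capitals mark CG dinucleotides and, in Igfbp4, the letters TATAAA. The windows lie at chr11:7213924-7214173 on the minus strand (Igfbp3), chr11:99040994-99041243 on the plus strand (Igfbp4), chr1:72874866-72875115 on the minus strand (Igfbp5) and chr10:87860861-87861110 on the plus strand (Igf1).
Igfbp3: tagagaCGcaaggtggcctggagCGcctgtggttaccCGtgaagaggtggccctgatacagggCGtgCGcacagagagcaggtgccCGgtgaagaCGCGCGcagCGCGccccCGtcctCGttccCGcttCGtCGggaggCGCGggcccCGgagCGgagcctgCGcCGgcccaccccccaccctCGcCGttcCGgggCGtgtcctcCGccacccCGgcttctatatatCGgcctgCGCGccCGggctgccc
Igfbp4: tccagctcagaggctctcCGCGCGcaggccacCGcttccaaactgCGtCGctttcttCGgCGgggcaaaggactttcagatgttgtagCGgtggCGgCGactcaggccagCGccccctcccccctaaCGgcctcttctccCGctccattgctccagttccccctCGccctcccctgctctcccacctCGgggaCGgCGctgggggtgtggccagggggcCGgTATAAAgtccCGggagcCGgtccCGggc
Igfbp5: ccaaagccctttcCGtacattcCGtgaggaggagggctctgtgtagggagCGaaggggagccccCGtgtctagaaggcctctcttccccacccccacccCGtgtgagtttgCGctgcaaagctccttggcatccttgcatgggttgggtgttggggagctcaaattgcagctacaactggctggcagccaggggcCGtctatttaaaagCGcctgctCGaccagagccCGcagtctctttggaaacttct
Igf1: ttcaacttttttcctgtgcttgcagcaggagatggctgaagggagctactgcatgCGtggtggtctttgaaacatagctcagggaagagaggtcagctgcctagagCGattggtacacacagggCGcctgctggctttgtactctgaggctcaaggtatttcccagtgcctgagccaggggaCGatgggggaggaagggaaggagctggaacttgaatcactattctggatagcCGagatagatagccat

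Of these, Igfbp3 and Igfbp4 have windows rich in CG dinucleotides, with 32 in Igfbp3 and 22 in Igfbp4, while Igfbp5 has 10 and Igf1 has 5. The median over 32851 windows of the same length was 6, with quartiles at 2 and 16. GC content was 73.2% in Igfbp3, 69.2% in Igfbp4, 58.8% in Igfbp5 and 52.8% in Igf1, against a median of 52.4%. Among the other members, Igf1r held 42 CG dinucleotides, Igfbp7 held 26 and Igfbp6 held 7. The windows of Igfbp2, also higher in CD29hi, held 14 and 11, close to Igfbp5, and those of Igf2 held between 1 and 22.

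RefSeq gave 13 such windows for 9 of the 10 members, since some have several starts, and 3 motifs were searched, TTGCNNAA and GGGCGG on both strands and TATAAA on the gene's strand. TTGCNNAA, letters found in C/EBP binding sites, was in 0 of the 13 windows and in 9.56% of all 32851. GGGCGG, the GC box, which itself holds a CG, was in 5 of the 13 windows, belonging to Igf2, Igf1r, Igfbp2 and Igfbp7, and in 32.7% of all. TATAAA was in 1 of the 13, that of Igfbp4, and in 7.59% of all. These are matches of letters and show no binding.

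The 2 gates differed in the IGF axis in both genotypes. Igf1r, Igfbp2, Igfbp3 and Igfbp4 were higher in CD29hi than in CD29lo cells, while Igf1 and Igfbp5 were lower. These 6 of 10 members passed in the contrast averaged over the genotypes (limma, Benjamini-Hochberg adjusted p under 0.05), in which 22.9% of all 14598 genes passed, 12.2% as higher and 10.8% as lower. Within KO cells 5 members passed, against 14.1% of all genes, and within WT cells 4 passed, against 8.19% of all genes. Igf1r, Igfbp3 and Igfbp5 were called in both. The members' median log2 fold change between the gates was 0.66 in KO and 0.28 in WT, and over all genes it was 0.03 in KO.

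**Figure D1:**
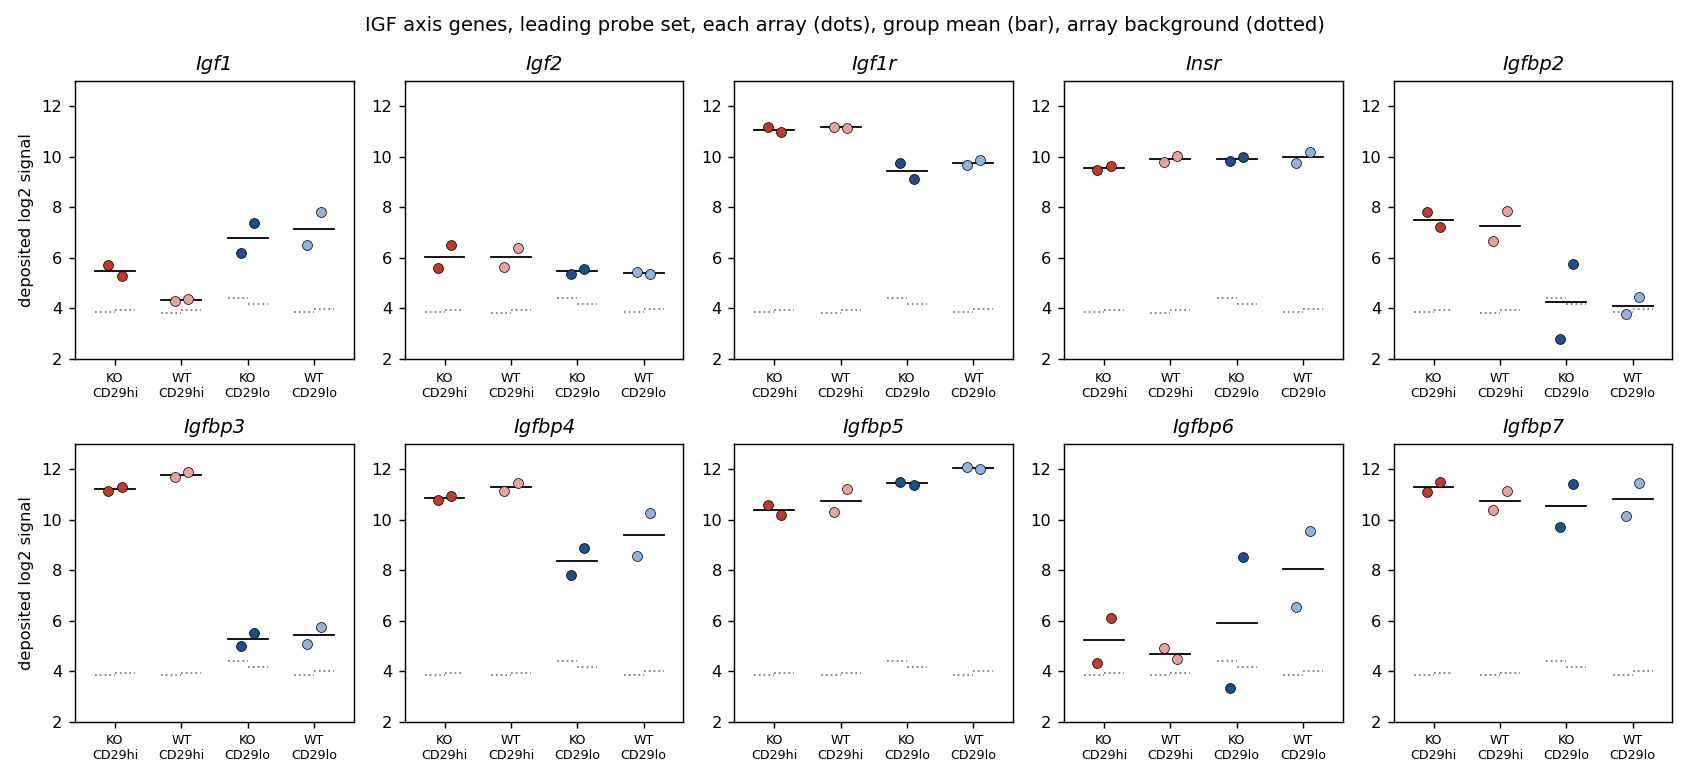
Deposited log2 signal (vertical axis) of the leading probe set of each of the 10 IGF axis genes, 1 panel per gene, in KO CD29hi, WT CD29hi, KO CD29lo and WT CD29lo cells (horizontal axis), with a dot per array, a bar at the group mean and a dotted line at each array's background. Igfbp3 lies between 11.12 and 11.87 in CD29hi and between 5.01 and 5.76 in CD29lo, while Igfbp6 spans 3.32 to 8.52 within KO CD29lo alone.

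Among the binding proteins Igfbp3, which carries most of the circulating IGF in complexes, had the widest gap between the gates. Its signal was 11.12 and 11.28 in KO CD29hi cells, against 5.01 and 5.51 in KO CD29lo cells. In WT it was 11.69 and 11.87 in CD29hi cells, against 5.09 and 5.76 in CD29lo cells. All CD29hi arrays were far above all CD29lo arrays, and the CD29lo values still lay above the background. The log2 fold change was 5.94 ± 0.32 (SE) in KO (limma adjusted p = 0.000112) and 6.36 ± 0.32 in WT (limma adjusted p = 9.66e-05), which is 61.4-fold and 81.9-fold. A second probe set of Igfbp3 gave 5.50 averaged over the genotypes, against 6.15 for the leading one. The call held with each array left out in turn, with a log2 fold change of 5.98 to 6.32 in the averaged contrast.

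Igfbp2, a binding protein that can also act at the cell surface through integrins, was seen by 1 probe set. It read 7.81 and 7.21 in KO CD29hi cells, against 2.80 and 5.75 in KO CD29lo cells. In WT it read 6.68 and 7.87 in CD29hi cells, against 3.79 and 4.44 in CD29lo cells. Every CD29hi array was above every CD29lo array, and 1 array of each CD29lo group lay below the background, so the size of the gap is uncertain. The averaged log2 fold change was 3.20 ± 0.62 (limma adjusted p = 0.00786), with 2.46 to 3.94 when 1 array was left out, and it passed each time. Within KO alone the value of 3.24 (limma adjusted p = 0.0442) was 1.76 without KO CD29lo array 1 (adjusted p = 0.122), and the call remained only without KO CD29lo array 2. The WT value of 3.16 did not pass (limma adjusted p = 0.0680), and passed without KO CD29lo array 1 or array 2.

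Igfbp4 encodes a binding protein that mostly holds IGF back until pregnancy-associated plasma protein A cleaves it. Its signal was 10.79 and 10.92 in KO CD29hi cells, against 7.81 and 8.89 in KO CD29lo cells. WT cells gave 11.14 and 11.46 in CD29hi, against 8.54 and 10.25 in CD29lo. The gates did not overlap, although WT CD29lo array 2 came within a short distance of the CD29hi arrays. The averaged log2 fold change was 2.21 ± 0.37 (limma adjusted p = 0.00412), and all 6 probe sets of the gene were higher in CD29hi, by 0.98 to 2.92. Within KO the difference was 2.51 (limma adjusted p = 0.0170). That call ended without KO CD29hi array 1 (adjusted p = 0.0862), array 2 of that group (adjusted p = 0.0821) or KO CD29lo array 1 (adjusted p = 0.0763). Within WT the difference was 1.91 (limma adjusted p = 0.0677), and it passed at 2.76 without WT CD29lo array 2 (adjusted p = 0.0143), and also without KO CD29lo array 1 or array 2.

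The receptor Igf1r was also higher in CD29hi. It read 11.17 and 10.98 in KO CD29hi cells, against 9.77 and 9.11 in KO CD29lo cells, and 11.17 and 11.16 in WT CD29hi cells, against 9.66 and 9.86 in WT CD29lo cells. No CD29lo array came near the CD29hi arrays, which all lay within a narrow range. The log2 fold change was 1.64 ± 0.23 in KO (limma adjusted p = 0.00310), 1.41 ± 0.23 in WT (limma adjusted p = 0.00826) and 1.52 ± 0.16 averaged (limma adjusted p = 0.000402), the last of which is 2.87-fold. The 4 of its 5 probe sets that were above the background on all 8 arrays were higher in CD29hi, by 1.52 to 2.12 in the averaged contrast. The WT call was lost without WT CD29hi array 1, WT CD29hi array 2 or WT CD29lo array 1, with adjusted p between 0.0544 and 0.0594.

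Insr, which encodes the insulin receptor, did not pass with its leading probe set. Its signal was 9.48 and 9.63 in KO CD29hi cells, against 9.85 and 9.98 in KO CD29lo cells. In WT it was 9.81 and 10.02 in CD29hi cells, against 9.77 and 10.18 in CD29lo cells, which overlapped. Neither the KO difference of -0.36 (limma adjusted p = 0.300) nor the WT difference of -0.06 (limma adjusted p = 0.909) passed. All 3 probe sets of Insr were lower in CD29hi in both genotypes. One of the others read 8.62 and 8.81 in KO CD29hi cells, against 9.22 and 9.30 in KO CD29lo cells, and 8.64 and 8.89 in WT CD29hi cells, against 9.54 and 9.48 in WT CD29lo cells. Its averaged difference of -0.65 passed when limma was run on every probe set (adjusted p = 0.0202).

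Igfbp5 was the member that was lower in CD29hi while bright in every group. It read 10.59 and 10.17 in KO CD29hi cells, against 11.49 and 11.37 in KO CD29lo cells. WT cells gave 10.30 and 11.20 in CD29hi, against 12.06 and 12.00 in CD29lo. No CD29hi array reached any CD29lo array. The averaged log2 fold change was -1.17 ± 0.19 (limma adjusted p = 0.00346), or 2.24-fold lower, and a second probe set gave -1.35. With 1 array left out the averaged value stayed between -1.39 and -0.94 and passed. Within KO the value was -1.05 (limma adjusted p = 0.0363) and within WT -1.28 (limma adjusted p = 0.0239). The KO call was lost without KO CD29hi array 1 or 2, KO CD29lo array 1 or 2, or WT CD29lo array 1 or 2 (adjusted p between 0.0556 and 0.174). The WT call was lost without WT CD29hi array 1, where the value was -0.83 (adjusted p = 0.0701), and without WT CD29lo array 1 or 2 (adjusted p = 0.116 and 0.0931).

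Of the ligands, Igf1 was lower in CD29hi. It read 5.72 and 5.28 in KO CD29hi cells, against 6.20 and 7.40 in KO CD29lo cells, and 4.30 and 4.39 in WT CD29hi cells, against 6.50 and 7.81 in WT CD29lo cells. The CD29hi arrays were all below the CD29lo arrays, and the CD29lo replicates differed by more than 1 log2 unit in each genotype. The averaged log2 fold change was -2.06 ± 0.40 (limma adjusted p = 0.00761). It was -2.81 ± 0.56 in WT (limma adjusted p = 0.0192) and -1.30 ± 0.56 in KO, which did not pass (limma adjusted p = 0.168). The WT call ended when WT CD29hi array 1 (adjusted p = 0.0963), array 2 of that group (adjusted p = 0.0952) or WT CD29lo array 2 (adjusted p = 0.108) was left out. Its other 3 probe sets were above the background on 5, 2 and 0 of the 8 arrays, so they give no size for the difference. Averaging them with the leading one gave -1.58, which did not pass (limma adjusted p = 0.0796).

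The 2 probe sets of Igf2, the ligand most active before birth, did not give the same picture. The leading one read 5.59 and 6.52 in KO CD29hi cells, against 5.37 and 5.58 in KO CD29lo cells. In WT it read 5.66 and 6.39 in CD29hi cells, against 5.45 and 5.37 in CD29lo cells. The values of CD29hi were a little higher, by 0.58 in KO (limma adjusted p = 0.450) and 0.62 in WT (limma adjusted p = 0.488), and neither passed. The other probe set read 6.33 and 6.98 in KO CD29hi cells, against 2.57 and 4.06 in KO CD29lo cells, where both arrays were below the background. That is at least 5.16-fold higher in KO CD29hi, with an adjusted p of 0.00660 when limma was run on every probe set. In WT this probe set read 5.95 and 6.62 in CD29hi cells, against 5.77 and 5.53 in CD29lo cells, a small difference in the same direction. Averaging both probe sets gave 1.96 in KO, which passed (limma adjusted p = 0.0254).

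Igfbp6, which prefers IGF2 over IGF1, and Igfbp7, a binding protein of low IGF affinity that is found in matrix and vessel walls, did not pass between the gates. Igfbp6 read 4.33 and 6.12 in KO CD29hi cells, against 3.32 and 8.52 in KO CD29lo cells. KO CD29lo array 1 lay below the background, so the size of differences that use it is uncertain. WT cells gave 4.92 and 4.47 in CD29hi, against 6.54 and 9.54 in CD29lo. The KO CD29lo replicates stood farther apart than the KO gates did and spanned both KO CD29hi arrays, while in WT both CD29lo arrays were higher than both CD29hi arrays. Its log2 fold change was -0.70 ± 1.58 in KO (limma adjusted p = 0.824) and -3.35 ± 1.58 in WT (limma adjusted p = 0.263). Igfbp7 was bright throughout, with 11.08 and 11.49 in KO CD29hi cells, against 9.69 and 11.39 in KO CD29lo cells, and 10.36 and 11.11 in WT CD29hi cells, against 10.14 and 11.46 in WT CD29lo cells. The groups overlapped, and the differences were 0.75 in KO (limma adjusted p = 0.449) and -0.07 in WT (limma adjusted p = 0.968). For a second, dimmer probe set of Igfbp7 the gates did not overlap, at 0.615 in KO and -0.645 in WT. Neither passed when limma was run on every probe set (adjusted p = 0.408 and 0.464).

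**Figure D2:**
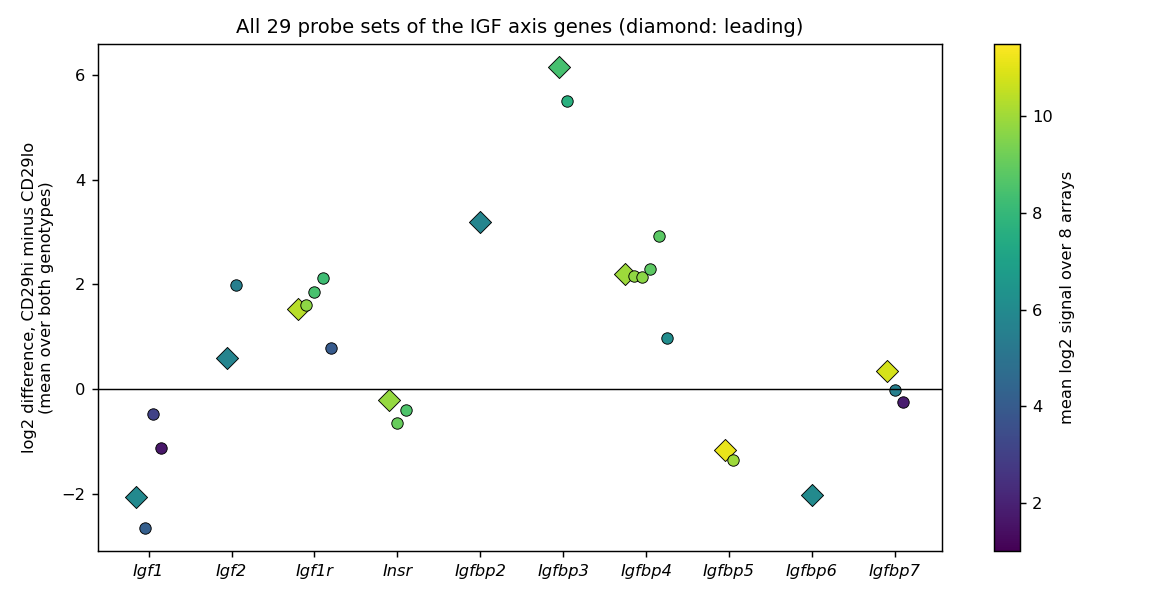
Log2 difference of CD29hi minus CD29lo, averaged over the genotypes (vertical axis), of each of the 29 probe sets of the IGF axis genes (horizontal axis), with a diamond for the leading probe set and colour for the mean log2 signal over 8 arrays. The 6 probe sets of Igfbp4 and the 5 of Igf1r all lie above 0, and those of Igfbp7 lie on both sides of it.

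Non-overlap alone was common in these comparisons. In KO, 5 members were higher and 3 lower in both CD29hi arrays than in both CD29lo arrays, and in WT likewise 5 and 3, where 57.1% of all genes in KO and 52.1% in WT did not overlap. Over all 8 arrays 5 members were higher and 2 lower in every CD29hi array, against 25.3% of all genes.

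**Figure D3:**
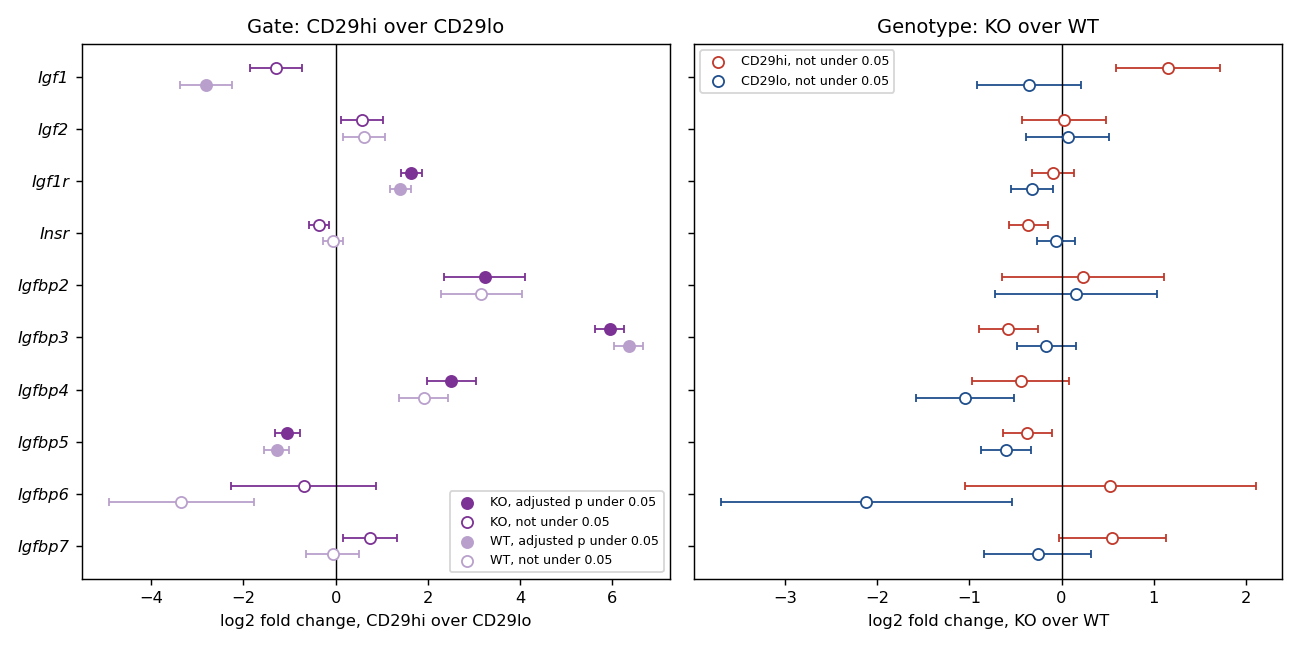
Log2 fold changes (horizontal axis) of the 10 IGF axis genes (vertical axis) with bars of 1 standard error, for CD29hi over CD29lo in each genotype (left) and KO over WT in each gate (right). Filled points had a limma adjusted p under 0.05: Igf1r, Igfbp3 and Igfbp5 are filled in both genotypes on the left, and every point on the right is open.

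Several members differ between the replicates of CD29lo in step with fibroblast markers. The mean over 18 fibroblast markers was 6.04 and 7.26 in KO CD29hi, 6.12 and 7.14 in WT CD29hi, 7.44 and 10.3 in KO CD29lo, and 9.12 and 10.9 in WT CD29lo. In each group the second replicate was the higher, and the widest gap lay within KO CD29lo. Of the 18 markers, 13 and 17 lay above the background in KO CD29hi, 15 and 16 in WT CD29hi, and all 18 in every CD29lo array, and none was at 0. The log2 of their summed signal ranged from 13.4 to 13.6 in KO CD29hi, 13.1 to 13.5 in WT CD29hi, 13.1 to 15.3 in KO CD29lo and 14.3 to 15.7 in WT CD29lo. Averaged over the genotypes, 12 of the 18 passed as lower in CD29hi and 1 as higher, against 10.8% and 12.2% of all genes. The higher one was Postn, at 11.96 to 12.26 on CD29hi arrays, against 9.27 to 11.65 on CD29lo arrays. Postn and Gsn were the brightest of the 18 on every CD29hi array, between 11.68 and 12.26, and weigh most in the sum there. The second replicate of each group also had the higher mean of endothelial and of adipocyte markers. For endothelial markers the mean was 4.86 and 6.09 in KO CD29lo, but 6.113 and 6.115 in WT CD29lo. For adipocyte markers it was 6.53 and 6.77 in WT CD29lo. The means of blood and pericyte markers were lower in the second replicate of WT CD29lo. Which of these marker lists the members follow was not tested. In such bulk samples fewer cells of a type and less RNA per cell cannot be told apart.

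**Figure D4:**
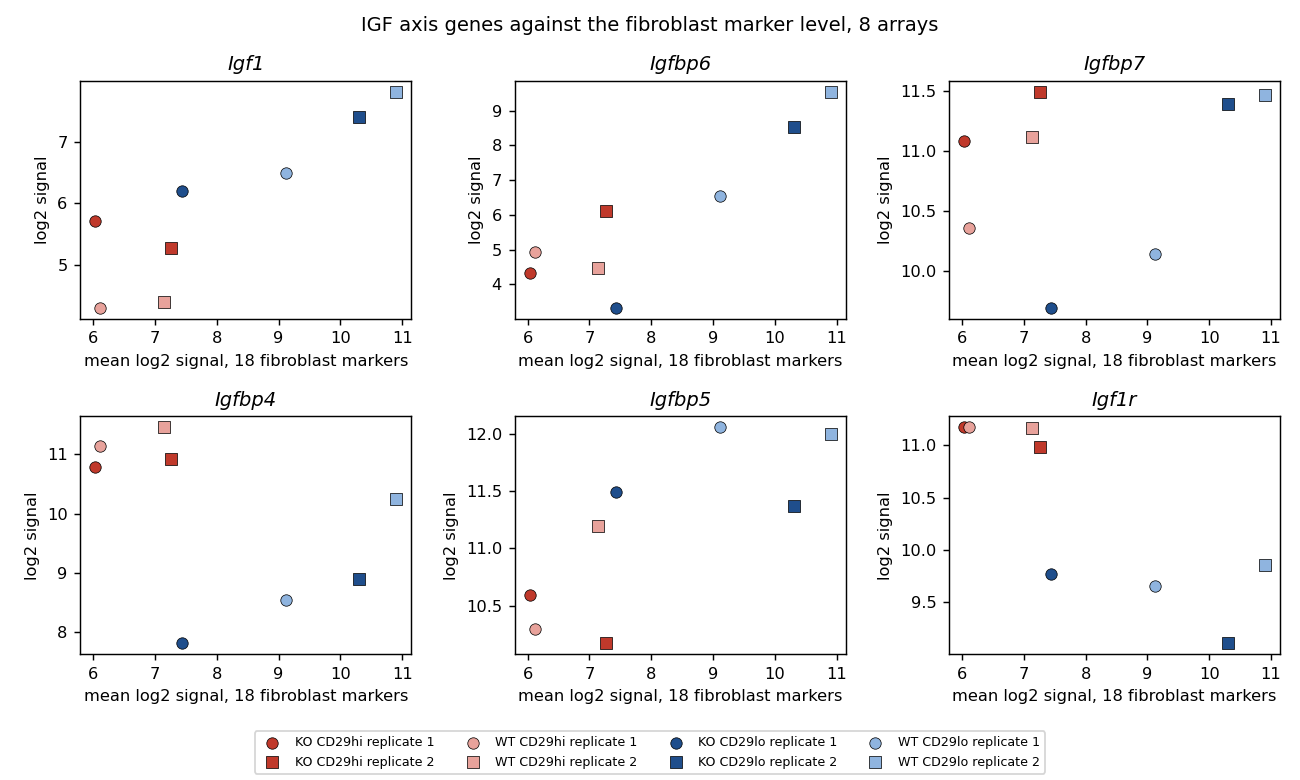
Log2 signal (vertical axes) of Igf1, Igfbp6, Igfbp7, Igfbp4, Igfbp5 and Igf1r against the mean log2 signal of 18 fibroblast markers (horizontal axes) on the 8 arrays, with a colour per group, circles for replicate 1 and squares for replicate 2. Igfbp6 reads 8.52 and 9.54 on the CD29lo arrays with marker means of 10.3 and 10.9, and 3.32 and 6.54 on those with 7.44 and 9.12.

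With the marker mean as a covariate, a setting chosen after the data were seen, Igfbp2, Igfbp3, Igfbp4 and Igf1r kept their calls in the averaged contrast. Igfbp4 then differed by 3.54 (limma adjusted p = 0.00210), where it was 2.21 without the covariate, and Igfbp2 by 5.23 (limma adjusted p = 0.00532), where it was 3.20. Igf1 lost its call at -0.98 (limma adjusted p = 0.336), and Igfbp5 at -1.17 (limma adjusted p = 0.0735). Igfbp7 gained one, at 2.10 in KO (limma adjusted p = 0.00155) and 1.99 in WT (limma adjusted p = 0.0130), and Igfbp6 turned to 2.81 in KO and 1.98 in WT. The WT call of Igf1r also ended, at 0.97 (limma adjusted p = 0.155). The marker means of the 2 gates did not overlap, with at most 7.26 in CD29hi and at least 7.44 in CD29lo. The slope of the covariate rests on the replicate differences within the groups. The gate differences of this fit are therefore extrapolated, and their sizes and calls are uncertain. Leaving out the second replicate of both CD29lo groups, also chosen after the data were seen, left 7 averaged calls, the same 6 and Igfbp7, with Igf1 at -1.43 (limma adjusted p = 0.0309). In that fit each CD29lo group holds 1 array, so the spread comes from the CD29hi groups alone and is taken to hold for CD29lo. The part of the fibroblast markers in these differences was not tested beyond these 2 settings, and that of the endothelial and adipocyte markers was not tested.

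The knockout was then set against the wildtype, the comparison the study was built for. No member passed in either gate: limma called 0 of 10 in CD29hi, where 0.0137% of all genes passed, and 0 of 10 in CD29lo, where 0.0137% passed. At an unadjusted p under 0.05 the count was also 0 in CD29hi and 0 in CD29lo, against 7.84% and 6.68% of all genes in these gates. Averaged over the gates 0 of 10 passed, against 0.0685% of all genes, and 1, Igfbp5, had an unadjusted p under 0.05, against 9.27%. The difference of the knockout effect between the gates passed for 0 of 10 members and 0% of all genes, and 0 members had an unadjusted p under 0.05, against 4.95%. The members' median log2 fold change was -0.03 in CD29hi, -0.29 in CD29lo and -0.21 averaged, against -0.06 over all genes in CD29lo and -0.05 averaged.

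Non-overlapping groups were found for 4 members in CD29hi, where 39.5% of all genes did not overlap. Of these, 1 was higher in KO, against 18.3% of all genes, and 3 were lower, against 21.2%. In CD29lo they were found for 1 member, which was lower, against 34.3% of all genes in either direction and 19.6% as lower. Over both gates together they were found for 0 members with the leading probe sets, against 3.24%. In CD29hi the higher one was Igf1, with 5.72 and 5.28 in KO cells, against 4.30 and 4.39 in WT cells. The log2 fold change was 1.16 (limma adjusted p = 0.701), with a 95% interval of -0.13 to 2.44. The other 3 probe sets of Igf1 do not bear on this, since each had at least 1 CD29hi array of each genotype below the background.

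The 3 lower members in KO CD29hi were Igfbp3, Igfbp4 and Insr. Igfbp3, at 11.12 and 11.28 in KO CD29hi and 11.69 and 11.87 in WT CD29hi, differed by -0.58 (limma adjusted p = 0.748), with an interval of -1.31 to 0.15. Its second probe set gave -0.78. Igfbp4 differed by -0.45 (limma adjusted p = 0.923) and Insr by -0.36 (limma adjusted p = 0.769), and for both every probe set was lower in KO. Another Insr probe set read 8.18 and 7.90 in KO CD29hi cells, against 8.57 and 8.76 in WT CD29hi cells. In CD29lo it read 8.51 and 8.51 in KO cells, against 8.98 and 8.99 in WT cells. Every KO array thus lay below every WT array, and all 8 were above the background. Its averaged difference of -0.55 did not pass when limma was run on every probe set (adjusted p = 0.418). The leading Insr probe set differed by -0.06 in CD29lo (limma adjusted p = 0.966).

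Igfbp5 was lower in both KO CD29lo arrays, with 11.49 and 11.37 in KO, against 12.06 and 12.00 in WT. The log2 fold change was -0.60 ± 0.27 (limma adjusted p = 0.749), with an interval of -1.22 to 0.02. In CD29hi it was -0.37 (limma adjusted p = 0.837), where the replicates of the leading probe set overlapped. Averaged over the gates it was -0.49 ± 0.19 (limma adjusted p = 0.491), the smallest adjusted p of the members in that contrast. Both probe sets were lower in KO in both gates. The second read 9.11 and 8.58 in KO CD29hi cells, against 9.39 and 10.07 in WT CD29hi cells, without overlap. That difference of -0.885 did not pass when limma was run on every probe set (adjusted p = 0.508). Igfbp4 averaged -0.75 ± 0.37 (limma adjusted p = 0.600), and all 6 of its probe sets were lower in KO in each gate, by up to 1.20 on the log2 scale in CD29lo. Its CD29lo difference of -1.05 was -0.51 with the mean of the fibroblast markers as a covariate (limma adjusted p = 0.783) and -0.73 without the second replicate of both CD29lo groups.

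The leading probe sets of the other members differed little between the genotypes or varied widely between replicates. Igf1r differed by -0.09 in CD29hi and -0.32 in CD29lo (limma adjusted p = 0.971 and 0.837). A pair of its other bright probe sets had both KO CD29lo arrays below both WT CD29lo arrays, by 1.27 on the log2 scale for one, with 6.47 and 7.28 in KO against 8.03 and 8.26 in WT, and by 0.91 for the other. Neither passed when limma was run on every probe set (adjusted p = 0.590 and 0.771). Igf2 differed by 0.03 and 0.07 (limma adjusted p = 0.997 and 0.981). Igfbp2 differed by 0.24 and 0.16, and Igfbp7 by 0.55 and -0.26. A second probe set of Igfbp7, above the background on all 8 arrays, read 5.99 and 6.01 in KO CD29hi cells, against 4.94 and 5.21 in WT CD29hi cells. Its difference of 0.925 did not pass when limma was run on every probe set (adjusted p = 0.720). Igfbp6 differed by 0.53 in CD29hi and by -2.12 in CD29lo (limma adjusted p = 0.978 and 0.844), the CD29lo value between groups whose arrays ranged from 3.32 to 9.54. The lowest of these, KO CD29lo array 1, lay below the background. The second probe set of Igf2 was at least 2.57-fold lower in KO CD29lo cells than in WT CD29lo cells, with an adjusted p of 0.590 when limma was run on every probe set.

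The genes around these members were read from a list of 50 genes of IGF processing and signalling, of which 42 were on the array and 38 were tested. Between the gates, averaged over the genotypes, 5 were higher and 5 lower in CD29hi, so 10 of 38 passed where 22.9% of all genes did. In KO and in WT 5 passed, against 14.1% and 8.19% of all genes. Pappa, the protease that frees IGF from IGFBP4, read 6.61 and 7.10 in KO CD29hi cells, against 3.34 and 5.27 in KO CD29lo cells. In WT it read 8.37 and 8.13 in CD29hi cells, against 4.48 and 4.69 in CD29lo cells. Its averaged log2 fold change was 3.11 ± 0.42 (limma adjusted p = 0.00136), so the protease and Igfbp4 were higher in the same gate. KO CD29lo array 1 lay below the background for Pappa, so the size of the gap is uncertain. Within KO the difference was 2.55, and 1.585 without that array. The KO call was lost without that array, KO CD29hi array 1 (2.795) or KO CD29hi array 2 (2.305). The WT call was lost without WT CD29hi array 1 (3.545), WT CD29hi array 2 (3.785) or WT CD29lo array 1 (3.56). Without a variance trend the KO difference did not pass (limma adjusted p = 0.05005).

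Irs2, a substrate of both receptors, was higher in CD29hi by 1.03 (limma adjusted p = 0.00673) and the translation repressor gene Eif4ebp1 by 0.82 (limma adjusted p = 0.00706). Jak2, the kinase of the growth hormone receptor, was lower by 1.80 on the log2 scale, with 8.56 and 8.93 in KO CD29hi cells, against 10.34 and 10.61 in KO CD29lo cells, and 8.55 and 8.78 in WT CD29hi cells, against 10.51 and 10.56 in WT CD29lo cells. Its groups did not overlap, and it passed in both genotypes (limma averaged adjusted p = 0.000160). The phosphatase gene Inppl1 was at -1.50 (limma adjusted p = 0.00183) and Grb10, an adaptor that dampens IGF and insulin receptor signalling, at -0.97 (limma adjusted p = 0.0136). These 6 averaged calls held with each array left out, and those of Grb10 and Eif4ebp1 ended when the probe sets of a gene were averaged (adjusted p = 0.0753 and 0.0554). With the fibroblast covariate Pappa, Jak2 and Eif4ebp1 still passed. Irs2 (adjusted p = 0.0844), Grb10 (adjusted p = 0.196) and Inppl1 (adjusted p = 0.102) then did not, and Grb10 also did not without the second replicate of both CD29lo groups (adjusted p = 0.0557).

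Smaller averaged differences passed for the transcription factor Foxo1 at 0.56, the mTORC1 activator Rheb at 0.38, Igf2r, the receptor that clears IGF2, at -0.51, and Foxo3 at -0.28. Without a variance trend none of these 4 passed, with adjusted p between 0.0648 and 0.213, and none passed with the fibroblast covariate or without the second replicate of both CD29lo groups. Foxo3 lost its call without any one of the 8 arrays. Averaging its probe sets put Foxo1 at 0.26 (adjusted p = 0.304). Foxo1 lost its call without KO CD29hi array 1 or 2, WT CD29hi array 2 or WT CD29lo array 2. Igf2r lost it without KO CD29hi array 1 or 2 or WT CD29lo array 2, and Rheb without KO CD29hi array 1 or WT CD29lo array 1.

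Between KO and WT limma called 0 of the 38 in CD29hi, in CD29lo, averaged and in the interaction. Of all genes 0.0137%, 0.0137%, 0.0685% and 0% passed there. An unadjusted p under 0.05 was found for 4, 3, 5 and 1 of the 38, against 7.84%, 6.68%, 9.27% and 4.95% of all genes. The smallest p in CD29hi belonged to Grb10, with 10.98 and 10.22 in KO CD29hi cells, against 9.36 and 9.25 in WT CD29hi cells. Both KO arrays were higher, and the log2 fold change was 1.30 ± 0.30 (limma adjusted p = 0.307). In CD29lo, where its signal was 10.79 and 10.80 in KO cells, against 10.66 and 11.43 in WT cells, the groups overlapped, and the difference between the gates did not pass either (1.55, limma adjusted p = 0.961). Next to Grb10 in CD29hi stood Stc2, an inhibitor of pregnancy-associated plasma protein A, at 0.58 (limma adjusted p = 0.572), and Rptor, a subunit of mTORC1, at -0.98 (limma adjusted p = 0.588).

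In CD29lo the smallest p values belonged to Socs2, a feedback inhibitor of growth hormone signalling, at 1.06 (limma adjusted p = 0.658), Tsc1, an mTORC1 inhibitor, at -0.66 (limma adjusted p = 0.658), and Irs2 at 0.75 (limma adjusted p = 0.680). The same 3 genes came first averaged over the gates, with Tsc1 at -0.57, Socs2 at 0.83 and Irs2 at 0.57 (limma adjusted p = 0.328, 0.346 and 0.417). Averaging the probe sets of Tsc1 turned its CD29lo value to 0.43.

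For the 4 members that varied most over the 8 arrays, the genes whose pattern was most like theirs were found among the 14597 other genes tested, by the root mean square difference of log2 values centred on each gene's mean. Bmp7, which encodes a bone morphogenetic protein, was the closest to Igfbp3 at 0.285, followed by Ripor2 at 0.347 and Moxd1 at 0.448. Bmp7 read 10.21 and 10.23 in KO CD29hi cells, against 4.10 and 4.08 in KO CD29lo cells, and 10.18 and 10.30 in WT CD29hi cells, against 4.30 and 4.71 in WT CD29lo cells. As with Igfbp3, the arrays fall into 2 levels by gate. Both KO CD29lo values of Bmp7 and of Moxd1 lay below the background, where those of Igfbp3 did not. Ripor2 lay below it on array 1 of each CD29lo group. The size of the gaps of these genes is thus uncertain.

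The genes most like Igfbp6 were Zfp469 at 0.345 and the extracellular matrix genes Srpx at 0.510 and Tnxb at 0.524. Tnxb, which encodes tenascin X, read 3.19 and 4.51 in KO CD29hi cells, against 3.14 and 7.11 in KO CD29lo cells, and 3.58 and 3.69 in WT CD29hi cells, against 4.49 and 8.15 in WT CD29lo cells. Its second CD29lo replicates were the highest, as for Igfbp6. Tnxb lay below the background on both WT CD29hi arrays, KO CD29hi array 1 and KO CD29lo array 1. Zfp469 and Srpx lay below it on every CD29hi array and on KO CD29lo array 1, so their likeness there compares values near the floor. Gas1, a cell surface protein gene of hedgehog signalling, was closest to Igfbp2 at 0.449, before Camk4 at 0.462 and Chst11 at 0.533. Smarca1, a chromatin remodelling gene, was closest to Igfbp4 at 0.190, before Mmd at 0.222 and Gnai1, a G protein subunit gene, at 0.240. Smarca1 lay below the background on both KO CD29lo arrays and on WT CD29lo array 1, and Camk4 on array 1 of each CD29lo group. The size of their gaps is thus uncertain. All of these likenesses are over the same 8 arrays, so they share the split by gate.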

How the data were processed

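Log2 signals per probe set, 1 column per array and floored at 0, were used as the authors deposited them. The scale was read from the values, and how the authors normalized the arrays is not given in the sources used here. Per the labels' protocols, RNA was isolated with the PicoPure kit, amplified with a NuGEN kit and labelled with biotin for Affymetrix arrays. No further normalization was applied, and 0 columns belonged to other samples.

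Probe sets with 1 gene in the platform's annotation of 2016 (34958 of 45101) were kept, with 932 that carry several genes and 9211 that carry none left out. Each gene took the probe set of highest mean, and genes below 3.51, the 25th percentile over probe sets, were dropped, leaving 14598 tested. The 4 groups were fitted together with limma 3.58.1 in R 4.3.3 (lmFit, eBayes with a variance trend, 4 residual and 4.31 prior degrees of freedom). The 7 contrasts were two-sided, each adjusted by Benjamini-Hochberg over all genes, with a threshold of 0.05. Standard errors follow ±. With 2 arrays a group, the number of arrays limits the precision. The labels call the arrays biological replicates but do not tie mice to arrays. The background of an array is the 95th percentile of 27 control probe sets, and a group with both arrays below it gives a bound ("at least"). Levels are not compared between probe sets.

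The members and the lists were chosen with earlier results of these data known. Named are all 10 members, pathway genes that passed in a contrast or had the 3 smallest p values in it, and the 3 genes most like each of the 4 members of largest SD. Alternatives were to quantile-normalize, to drop the filter or raise it to the 50th percentile, and to average the probe sets of a gene. Further ones were to run eBayes with no trend, to block on the replicate number, and to leave out each array. Another took arrays of the same genotype and replicate number as a random block, standing for a pool of glands, which the labels do not give. The fit was tested on simulated data. Promoter windows came from a RefSeq table of GRCm38.p6, used for sequence only, because the array's own build is not given in the sources used here. Motifs were counted with Python 3.11.15 and pandas 2.3.3, and figures drawn with matplotlib 3.10.9.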

Additional observations from a re-analysis of the deposited data

Results flagged for a closer look

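Rheb, which encodes the GTPase that activates mTORC1, had KO arrays on opposite sides of the WT arrays in the 2 gates, and passed in neither. It read 11.67 and 11.44 in KO CD29hi cells, against 11.29 and 11.26 in WT CD29hi cells, a log2 fold change of 0.28. In CD29lo it read 10.96 and 11.03 in KO cells, against 11.08 and 11.07 in WT cells, a log2 fold change of -0.08. Both KO arrays were above both WT arrays in CD29hi and below them in CD29lo, where 39.5% and 34.3% of all genes did not overlap. The test of the difference itself gave 0.36 and did not pass (limma adjusted p = 0.961). Arrays that stand apart within a group were not sought, since each group holds 2.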

How the results depend on the processing

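The averaged gate calls of Igf1r, Igfbp2, Igfbp3 and Igfbp4 were kept in every alternative run, that of Igfbp5 in all but the fibroblast covariate, and that of Igf1 in all but the mean of probe sets and the covariate. Between KO and WT the count of members and of pathway genes was 0 in every alternative run, each left-out array included. Without a variance trend, 2 members and 2 pathway genes passed between the gates in KO, where 5 and 5 had passed. The members that no longer passed in KO were Igfbp2, Igfbp4 and Igfbp5, and Igfbp5 did not pass in WT either. With no filter, Igfbp2 did not pass between the gates in KO (limma adjusted p = 0.0514), nor Foxo3 averaged (limma adjusted p = 0.0545). With the mean of probe sets, Igf1 did not pass between the gates in WT (-1.805, limma adjusted p = 0.2255). With the fibroblast covariate, chosen after the data were seen, 3 pathway genes passed between the gates in WT and 5 averaged. With 1 array left out, 2 to 4 members passed between the gates in KO and 1 to 6 in WT, and 1 to 5 pathway genes passed in KO, 1 to 5 in WT and 6 to 13 averaged. The cause of these changes was not tested.

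Same-numbered arrays of different groups correlated in their deviations from the group means by 0.00563 to 0.321, not all over 0.1, so the numbers alone were not taken to pair the arrays. With the replicate block, 5 members passed between the gates in KO, 6 in WT and 6 averaged, and 0 passed between KO and WT. The WT calls gained with the block were Igfbp2 (3.16, adjusted p = 0.0374) and Igfbp4 (1.91, adjusted p = 0.0163). With arrays of the same genotype and replicate number taken as a random block, 5 members passed between the gates in KO, 4 in WT and 6 averaged.

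Signs turned for differences that had not passed. With the mean of probe sets, KO over WT in CD29lo was 0.0863 for Igf1, -1.14 for Igf2 and 0.43 for Tsc1. Without both CD29lo arrays numbered 2, chosen after the data were seen, it was -0.08 for Igf2, 0.11 for Igf1r, 0.08 for Insr and -0.99 for Igfbp2, and CD29hi over CD29lo was 1.91 for Igfbp6 in KO, 0.15 for Insr in WT and 0.60 for Igfbp7 in WT. With the covariate, KO over WT in CD29lo was 0.0788 for Igf1, 0.0623 for Insr, 0.0799 for Igfbp3 and 0.43 for Igfbp7, and CD29hi over CD29lo was 2.81 for Igfbp6 in KO, and 0.30 for Insr, 1.98 for Igfbp6 and 1.99 for Igfbp7 in WT. With 1 array left out, KO over WT in CD29hi ranged from -0.19 to 0.005 for Igf1r, -0.44 to 0.50 for Igf2, -0.36 to 0.83 for Igfbp2, -0.82 to 0.08 for Igfbp5 and -0.37 to 1.43 for Igfbp6. In CD29lo it ranged from -1.01 to 0.30 for Igf1, -0.65 to 0.01 for Igf1r, -0.04 to 0.17 for Igf2, -0.27 to 0.15 for Insr, -1.32 to 1.64 for Igfbp2, -0.50 to 0.17 for Igfbp3, -4.72 to 0.48 for Igfbp6 and -1.11 to 0.59 for Igfbp7. CD29hi over CD29lo ranged from -3.30 to 1.91 for Igfbp6 and -0.11 to 1.60 for Igfbp7 in KO, and from -0.73 to 0.60 for Igfbp7 and -0.27 to 0.15 for Insr in WT.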
